A study of Saccharomyces cerevisiae with 15 samples.

Results

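Transcript levels of thp1Δ cells were set directly against those of sus1Δ cells of Saccharomyces cerevisiae, with 3 Affymetrix arrays per strain and no wild-type array in the test. These were 6 of the 15 arrays of the series, which also held sac3Δ and the wild types BY4741 and BY4742. The thp1Δ strain (Y11764) carried thp1::KanMX and the sus1Δ strain (Y17455) sus1::KanMX, and both had the alleles his3Δ1, leu2Δ0, lys2Δ0 and ura3Δ0. Each deletion was represented by 1 strain, grown in liquid YPD to mid-log phase. All probe sets that could be paired with a gene were used, 5498 of the 5900 in the table, which gave 5449 genes. Of these, 424 lay on chromosome XVI (systematic names starting with YPL or YPR) and 5025 on the other chromosomes, and both sets are described separately. By their labels the 3 arrays of each strain are biological replicates. Separate cultures are not stated, so a p-value here reflects the spread among these 6 samples only.

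THSC/TREX-2 is a complex at the nuclear side of the pore that couples transcription with mRNA export. Sac3 is its scaffold. Thp1 and Sem1 bind near one end of it and form a surface that holds RNA, whereas Sus1 and Cdc31 wrap around another stretch and dock the complex at the pore. Sus1 has a second home in SAGA, the histone acetyltransferase complex, where it belongs to the module that removes ubiquitin from histone H2B. The direct comparison asks at which genes cells that lack Thp1 and cells that lack Sus1 had different transcript levels.

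The deleted genes read as labelled. THP1 gave 19.9, 14.7 and 13.7 units of intensity in thp1Δ and 1613, 1655 and 1624 in sus1Δ, at least 79.1-fold lower in thp1Δ. SUS1 gave 777, 961 and 990 units in thp1Δ and 21.5, 19.0 and 22.8 in sus1Δ, at least 39.3-fold higher in thp1Δ. Both bounds were taken against the array background, the reading of the deleted marker URA3. LYS2 was low in both strains (means of 40.3 units in thp1Δ and 67.3 in sus1Δ) and MET17 was present (2657 and 2301), which is the marker pattern of BY4742. The labels give mating type a, but 2 of the 4 α-specific genes on the array were on in both mutants, and the rest were not among the genes tested. STE3, the receptor for a-factor, averaged 8574 units in thp1Δ and 9322 in sus1Δ, and SAG1, the α-agglutinin, 17813 and 16786. Both strains were therefore treated as of the mating type of BY4742, against their labels.

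The arrays of the strains also differed in technical readings. The median over all probe sets of the table, controls included, stood at 1442 to 1460 units on the thp1Δ arrays and 1396 to 1405 on the sus1Δ arrays. Arrays of the same strain ranked the genes alike, with Spearman's rho of 0.992 to 0.996 in thp1Δ and 0.996 to 0.998 in sus1Δ, and the median SD of a gene was 0.0858 and 0.0524 on the log2 scale. For SRB4 the 3′ control probe set was divided by the 5′ one, a quantity that grows as RNA or its copies shorten, and the ratio was 8.84, 9.21 and 19.3 in thp1Δ and 4.59, 5.16 and 5.02 in sus1Δ. The spiked-in control bioC read 226 ± 25.7 units in thp1Δ and 1233 ± 131 in sus1Δ, and the control dap 862 ± 68.8 and 354 ± 58.9 (SD, n = 3 each). For bioC the other strains fell on both sides, with 185 to 248 units in sac3Δ, 270 to 358 in BY4741 and 1345 to 1729 in BY4742. The array set and the strain thus cannot be told apart in this comparison. Replicate 3 of thp1Δ stood apart, with the highest SRB4 ratio, 22 empty cells against 5 to 8 on the others, and 10913 units at the 3′ probe set of 18S rRNA against 225 to 1125 elsewhere among the 6 arrays.

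After genes under 600 units in at least 50% of the 6 arrays had been removed, 4284 genes were tested with limma. A gene was called at a Benjamini-Hochberg adjusted p under 0.05, a fold of at least 1.5 and a difference of strain means over 100 units. With these criteria 504 genes were higher in thp1Δ (11.8% of those tested) and 247 lower (5.77%). Almost equal parts of the higher genes came from chromosome XVI, which held 248 of them, and from the 15 other chromosomes together, which held 256. Without replicate 3 of thp1Δ the counts were 492 higher and 226 lower, with 254 of the higher genes on chromosome XVI. Chromosome XVI had 49.2% of the higher calls with 7.96% of the genes tested. Without the fold and difference minimum, 2939 genes had an adjusted p under 0.05 and 3069 an unadjusted one, so the minimum fold and not the p-value set most of the counts.

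**Figure D1:**
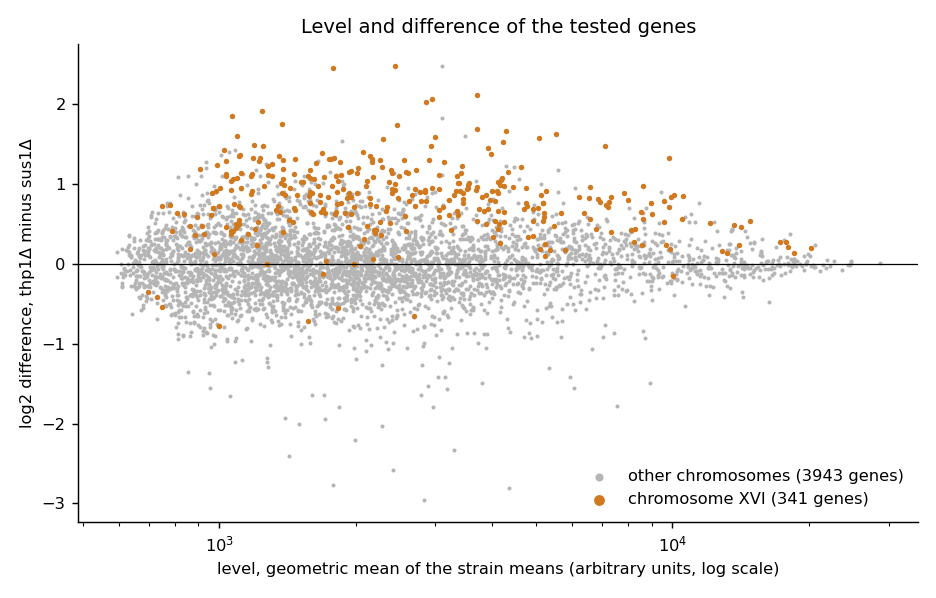
Each point is 1 tested gene, with the geometric mean of its strain means on the x axis (arbitrary units, log scale) and the log2 difference, thp1Δ minus sus1Δ, on the y axis. Genes of chromosome XVI (orange) lie mostly above 0 at every level, with a median of 0.82, whereas the others (grey) lie around a median of −0.01.

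On chromosome XVI, 248 of 341 tested genes (72.7%) were higher in thp1Δ and 3 (0.88%) lower, so that 73.6% were called. On the other chromosomes the shares were 6.49% higher (256 of 3943) and 6.19% lower (244). The median log2 difference of chromosome XVI was 0.82, a fold of 1.77, and that of the rest was −0.01. A value above 0 was found for 330 of the XVI genes (96.8%), including those that passed no criterion. The medians of the other 15 chromosomes ran between −0.10 (chromosome III) and 0.04 (chromosome VI), so no other chromosome moved as a unit.

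The shift was nearly the same on each array. The median of the XVI genes minus that of the others, set against the mean of sus1Δ, was 0.83, 0.84 and 0.83 on the 3 thp1Δ arrays (mean 0.833 ± 0.0035 SD on the log2 scale, n = 3, a fold of 1.78). All 3 values share 1 sus1Δ mean, so this SD leaves out the spread among the sus1Δ arrays. Set against the mean of thp1Δ, the sus1Δ arrays gave −0.82, −0.84 and −0.82. Set against the mean of all 6 arrays, the same quantity was 0.417, 0.416 and 0.392 on the thp1Δ arrays and −0.416, −0.415 and −0.416 on the sus1Δ arrays, so the strains did not overlap. The two-sided exact permutation test on these 6 values gave p = 0.1, the smallest that 3 against 3 arrays allow, so it could not pass a threshold of 0.05 whatever the values. Beside BY4742, the same quantity was 0.83 in thp1Δ (333 of the 341 genes above 0) and 0.01 in sus1Δ (201 of 341), which are descriptions over the same genes.

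The elevation ran along the whole chromosome. The left arm had a median log2 difference of 0.78 (146 of 206 genes called higher) and the right arm of 0.85 (102 of 135). In windows of 20 neighbouring tested genes, the 17 windows of chromosome XVI had medians between 0.61 and 0.96, and the 190 windows of the other chromosomes medians between −0.27 and 0.35. The lowest XVI window was the first of the left arm, from FEX2 to RPL36B, where 10 of 20 genes were called higher. No window of chromosome XVI therefore reached down to the highest window elsewhere.

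**Figure D2:**
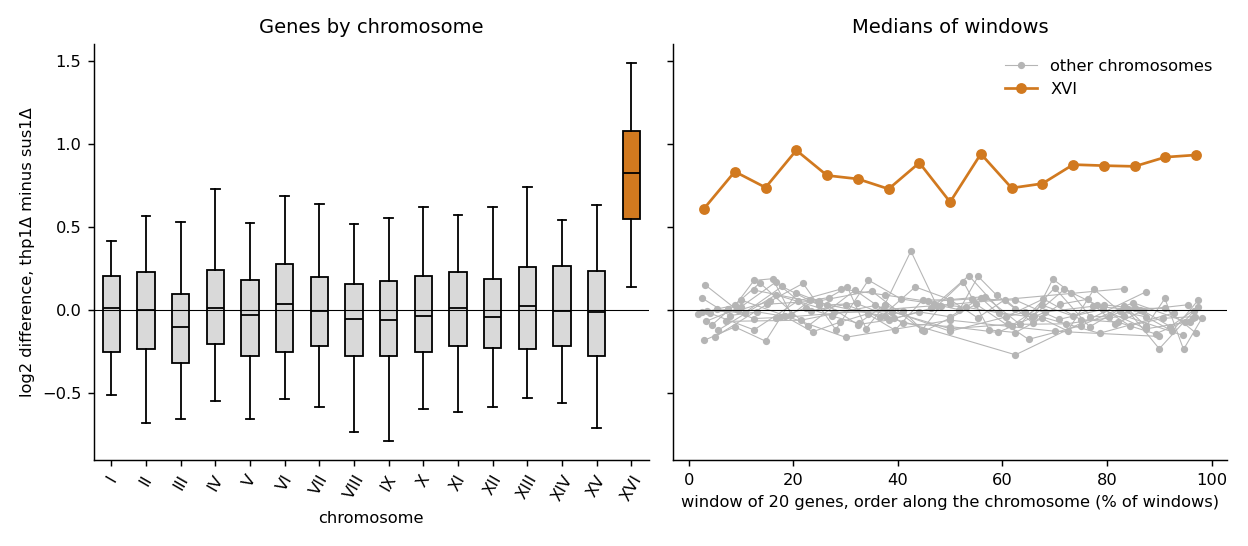
Left, log2 differences of tested genes by chromosome, with the median, quartiles and 5th to 95th percentiles. Right, medians of consecutive windows of 20 genes, ordered along each chromosome, where chromosome XVI (orange) keeps between 0.61 and 0.96 and the others stay between −0.27 and 0.35.

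By quintile of level, from lowest to highest, the medians of chromosome XVI were 0.63, 0.98, 0.88, 0.91 and 0.65, with no steady order (Spearman's rho −0.14 across its 341 genes). In the top quintile 51 of 90 genes were called higher, and in the bottom one 21 of 36. Cytosolic ribosomal protein genes, among the most expressed of the cell, showed the smallest shift of any list with several members on XVI, since their 8 XVI members had a median of 0.19 and none was called. In 7 pairs of duplicated ribosomal protein genes with 1 copy on chromosome XVI, the XVI copies had a median log2 difference of 0.19 and the copies elsewhere of −0.02. The XVI copy had the larger value in each pair, as in RPL33A (0.27 ± 0.05 SE) and RPL33B (−0.07 ± 0.05), and neither passed the minimum fold. Probe sets of such copies can share sequence, and part of these pairs was read by probe sets marked as shared.

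The highest gene on chromosome XVI was TDA6, which had 5199, 5488 and 6708 units in thp1Δ and 1106, 988 and 1000 in sus1Δ (log2 difference 2.48 ± 0.09, limma adjusted p = 9.09e-08). KAR3, a minus-end-directed kinesin of the mitotic spindle and of nuclear fusion, had 3833, 4602 and 4082 units in thp1Δ against 763, 802 and 720 in sus1Δ (2.45 ± 0.07). ROX1, the repressor of hypoxic genes, had 7257, 7753 and 8250 against 1709, 1890 and 1743 (2.12 ± 0.06). In all of these the strains were far apart, with a difference over 1 log2 unit larger than the median of their chromosome. PDR12, a plasma membrane exporter of weak acids (2.07 ± 0.11), SNT309, a subunit of the Prp19 splicing complex (2.03 ± 0.07), FRK1, a protein kinase (1.92 ± 0.07), CUR1, a sorting factor for misfolded proteins (1.86 ± 0.10), and HOS3, a histone deacetylase (1.75 ± 0.06), followed.

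Of the 3 XVI genes called lower, 2 had strains that did not overlap. FHL1, a regulator of ribosomal protein genes, had 1099, 1548 and 1044 units in thp1Δ and 2217, 2039 and 1753 in sus1Δ (log2 difference −0.72 ± 0.14, adjusted p = 0.00151). VTC3, a subunit of the vacuolar polyphosphate polymerase, had 2145, 2225 and 2011 against 2554, 3651 and 3968 (−0.65 ± 0.14, adjusted p = 0.00243), and it lost its call when replicate 2 or 3 of sus1Δ was left out. The third, PBI1, had 685, 759 and 768 units in thp1Δ and 712, 1709 and 1635 in sus1Δ, so the strains overlapped, and its call (−0.77 ± 0.28, adjusted p = 0.0321) was lost without any 1 of 5 of the 6 arrays.

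Off chromosome XVI the highest difference was that of HPF1, a mannoprotein of the cell wall, with 6663, 7405 and 7984 units in thp1Δ and 1348, 1341 and 1244 in sus1Δ (2.48 ± 0.07, adjusted p = 6.08e-08). YSA1, a hydrolase of ADP-ribose and the neighbour of SUS1, had 6135, 5760 and 5593 units in thp1Δ and 1745, 1576 and 1621 in sus1Δ (1.82 ± 0.06). It stands beside the KanMX insertion of sus1Δ, and in BY4742 it read 4996 units. CYC8, which flanks SUS1 on its other side, gave 0.39 ± 0.05, and the neighbours of THP1, DSC2 and SDH5, gave −0.06 ± 0.08 and −0.17 ± 0.07, none of them called. TEC1, a transcription factor of filamentous growth, had 6130, 5955 and 6134 units against 2077, 2033 and 1879 (1.61 ± 0.05).

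Several of the other leading genes act in mating or in the spindle. FUS2, needed for cell fusion in mating, had 1633, 1708 and 1507 units in thp1Δ and 576, 680 and 627 in sus1Δ (log2 difference 1.37). CIK1, the partner of the kinesin Kar3, had 1405, 1526 and 1430 against 571, 652 and 580 (1.28), and KAR5, needed for nuclear fusion, 1964, 1976 and 1950 against 811, 870 and 783 (1.26). The kinesin CIN8 (1.43), which pushes spindle poles apart, and DAD4 (1.28), a subunit of the DASH ring at kinetochores, belonged to the same 12 genes. GAT2, a GATA-type transcription factor (1.55), PLN1, a protein of lipid droplets (1.40), EAF7, a subunit of the NuA4 acetyltransferase (1.29), and HSP78, the disaggregase of mitochondria (1.22), completed them. In none of the 12 did the arrays of the strains overlap, which their choice as the largest differences favours.

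**Figure D3:**
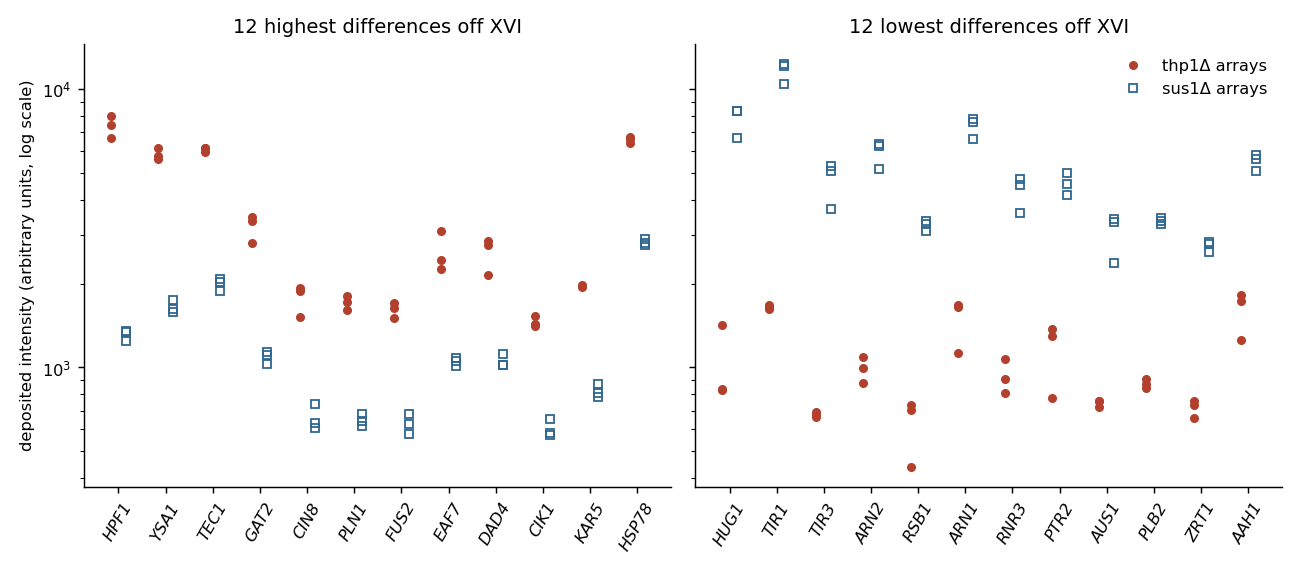
Deposited intensity (arbitrary units, log scale) on each of the 6 arrays for the 12 called genes with the highest (left) and the 12 with the lowest (right) log2 difference off chromosome XVI, thp1Δ as filled circles and sus1Δ as open squares. All 24 were picked for the size of their difference, and for each of them all 3 arrays of one strain lie above all 3 of the other.

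The lowest called gene was HUG1, a small protein made under the DNA damage checkpoint, with 1415, 831 and 836 units in thp1Δ and 6647, 8358 and 8356 in sus1Δ (log2 difference −2.96 ± 0.19, adjusted p = 1.28e-06). RNR3, the damage-inducible large subunit of ribonucleotide reductase, had 1069, 906 and 808 against 3594, 4738 and 4515 (−2.21 ± 0.12). In BY4742 they read 951 and 785 units, so the sus1Δ level was the one away from the wild type. Of the 19 tested genes of the DNA damage list, MEC1, the checkpoint kinase, was the only other one called lower (−0.74) and RDH54, a recombination ATPase, the only one higher (0.71), and the list's median was 0.08.

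TIR1 and TIR3, cell wall mannoproteins of oxygen-starved cells, were next. TIR1 had 1629, 1676 and 1621 units in thp1Δ and 10383, 12262 and 12038 in sus1Δ (−2.81 ± 0.07), and TIR3 had 695, 666 and 677 against 3717, 5052 and 5283 (−2.77 ± 0.11). ARN2 and ARN1, carriers of iron-loaded siderophores, gave −2.58 ± 0.10 and −2.33 ± 0.14. For all 4 the level in BY4742 lay between those of the mutants. RSB1, which moves sphingoid bases across the plasma membrane (−2.41), PTR2, the peptide transporter (−2.03), AUS1, a sterol importer (−2.01), PLB2, a phospholipase B (−1.94), ZRT1, the high-affinity zinc transporter (−1.93), and AAH1, adenine deaminase (−1.79), made up the rest of the 12.

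Genes grouped by function were then counted among the members off chromosome XVI, to be read beside the 6.49% of genes called higher and the 6.19% called lower there. Counts of members on chromosome XVI are to be read beside the 72.7% of its tested genes called higher. Among genes of purine synthesis and one-carbon metabolism, 16 of 25 were lower in thp1Δ and 1 higher, with a median log2 difference of −0.70 (all other-chromosome genes −0.01). ADE17, which makes IMP, had 2217, 1723 and 1627 units in thp1Δ and 4762, 5485 and 6123 in sus1Δ (−1.56 ± 0.12, adjusted p = 4.36e-06). HPT1, of the salvage of hypoxanthine and guanine, had 1677, 1510 and 1551 against 4717, 4855 and 5204 (−1.64 ± 0.06). The synthesis genes ADE1 (−1.05), ADE2 (−0.70), ADE4 (−0.78), ADE8 (−0.81) and ADE13 (−0.72) were lower too, as were the IMP dehydrogenases IMD2 (−0.99) and IMD3 (−0.91). Of the pair of activators of these genes, BAS1 gave 0.05 and PHO2 was the list's only higher member (0.80 ± 0.08).

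Iron uptake genes had 10 of 22 members lower and none higher off chromosome XVI, with a median of −0.49. The cell wall mannoproteins FIT2 and FIT3, which hold siderophores, had means of 4077 and 5334 units in thp1Δ against 13955 and 15000 in sus1Δ (log2 differences −1.78 ± 0.07 and −1.49 ± 0.05). SIT1 (−1.41), the low-affinity transporter FET4 (−1.16), ENB1 (−0.93), the permease FTR1 (−0.88), the mitochondrial carrier MRS4 (−0.66) and TIS11, which degrades mRNAs in iron shortage (−1.64), were the others besides ARN1 and ARN2. The oxidase FET3 was below the minimum fold (−0.39 ± 0.05), and AFT1, the activator of these genes, gave 0.39 and was not called. Zinc genes had 3 of 8 lower, with IZH2 (−0.82) and IZH1 (−0.63) besides ZRT1, and a median of −0.36.

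Genes repressed by Rox1 or induced without oxygen were lower in 5 of the 8 members tested off chromosome XVI, with a median of −0.79, while ROX1 itself was higher. HEM13, of heme synthesis, had 1851, 1641 and 1596 units in thp1Δ and 4841, 4988 and 4881 in sus1Δ (−1.53 ± 0.06, adjusted p = 1.33e-07). OLE1, the fatty acid desaturase, gave −0.86 ± 0.09 and COX5B, the hypoxic subunit of cytochrome c oxidase, −0.71 ± 0.07. Removed for low values were, among others, ANB1, the hypoxic form of eIF5A, with 464, 444 and 375 units in thp1Δ and 5649, 6680 and 6624 in sus1Δ, and TIR4, with 406, 416 and 453 against 2860, 5421 and 5794. CYC7, a form of cytochrome c, was removed for low values in sus1Δ and lay the other way, at 880 units in thp1Δ and 407 in sus1Δ. UPC2, the activator of sterol uptake and of several of these genes, was lower as well (−0.91).

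Phosphate genes had 2 of 10 lower off chromosome XVI, namely VTC4 (−0.77) and PHO90, a low-affinity transporter (−0.67), and 1 higher, PHM8 (0.66). The 1 tested member on chromosome XVI, VTC3, was lower, with the values given above. The largest differences of this group lay among genes that the filter had removed. PHO84, the high-affinity phosphate transporter, had 89.8, 100 and 101 units in thp1Δ and 5903, 10006 and 9264 in sus1Δ (log2 difference −6.40 ± 0.18, adjusted p = 1.45e-06 in the fit with no filter), and 7761 in BY4742. SPL2, which acts on low-affinity phosphate transport, averaged 20.9 units in thp1Δ and 559 in sus1Δ, so that the thp1Δ values lay at the array background. Amino acid synthesis genes had 8 of 42 lower off chromosome XVI and 1 higher (median −0.28), with SER3, of serine synthesis (−1.56), BAT2, a branched-chain aminotransferase (−1.49), and HIS4 (−1.42) lowest and LEU1, of leucine synthesis, higher (1.07 ± 0.08). Amino acid and peptide permeases had 3 of 13 lower and none higher.

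**Figure D4:**
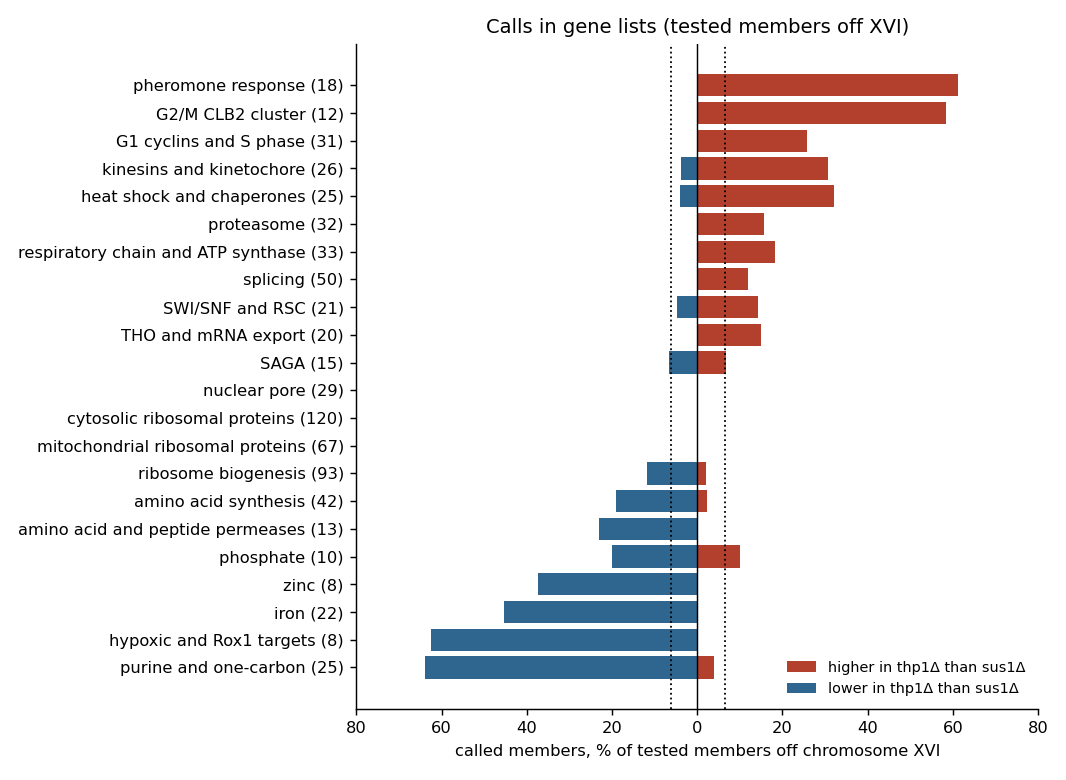
Bars give the share of tested members off chromosome XVI (number in brackets) called higher (red, right) or lower (blue, left) in thp1Δ than in sus1Δ, with the shares over all tested genes off chromosome XVI, 6.49% and 6.19%, as dotted lines. Among the lists plotted, which are not all the lists read, pheromone response and the CLB2 cluster reach farthest to the right, and purine synthesis, hypoxic and iron genes farthest to the left.

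The pheromone response list was higher in 11 of 18 members off chromosome XVI and lower in none, with a median of 0.68. Besides TEC1, FUS2, CIK1 and KAR5, it held GIC2, an effector of Cdc42, with 6992, 7011 and 6498 units in thp1Δ and 2961, 2876 and 2984 in sus1Δ (1.22 ± 0.05, adjusted p = 1.47e-07). FAR1, which arrests the cycle in G1, gave 1.02 ± 0.08, FUS1 0.91 ± 0.09, and STE12, the transcription factor of the response, 0.74 ± 0.08. The mating adhesin FIG2 (0.10) and the phosphatase MSG5 (−0.01) did not pass. Of the 6 a-specific genes on the array, 5 were removed by the filter and are given by their values. AGA2, the a-agglutinin subunit, averaged 1162 units in thp1Δ and 224 in sus1Δ, STE2, the α-factor receptor, 1106 and 411, and MFA2, an a-factor precursor, 1025 and 270, with no overlap of the strains. BAR1, the protease that cuts α-factor, averaged 621 units in thp1Δ and 210 in sus1Δ. STE6, the a-factor exporter, averaged 555 and 411, under the minimum fold. MFA1 was tested and called (0.87 ± 0.12). The sum over the 6 genes was 6594 to 7923 units on the thp1Δ arrays and 2703 to 3217 on the sus1Δ arrays. HMRA1, which encodes the a1 protein of a cells, stayed at the array background in both strains (means of 7.53 and 9.90 units).

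Among cell-cycle lists, those of G2/M, of G1 and S phase and of kinesins and kinetochores are given with the histone genes. Of the CLB2 cluster, transcribed in G2/M, 7 of 12 tested members off chromosome XVI were higher and none lower (median 0.63). DBF2, a kinase of mitotic exit, had 2568, 2490 and 2800 units in thp1Δ and 1429, 1497 and 1383 in sus1Δ (0.87 ± 0.06), and the Polo kinase CDC5 gave 0.80 ± 0.07 and SPO12 0.83 ± 0.07. The 3 tested members on chromosome XVI, AIM44 (1.67), the cyclin CLB2 (1.37) and IQG1, of the contractile ring (1.10), lay above the median of their chromosome. CLB1 was not called (−0.53). G1 and S phase genes had 8 of 31 higher off chromosome XVI (median 0.34), such as the SBF and MBF subunit SWI6 (1.10), the cohesin subunits MCD1 (1.10) and SMC1 (1.04) and the repressor YOX1 (0.99), and 3 of 3 on it, the cyclin CLN2 (1.56), DPB2 of DNA polymerase ε (1.48) and CTF4 (1.15). Kinesin and kinetochore genes had 8 of 26 higher and 1 lower off chromosome XVI (median 0.45), the lower one being SPC25 (−0.76). Histone genes had none of 9 called (median 0.04).

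Calls among chaperone and proteasome genes ran mostly one way. Of heat shock and chaperone genes off chromosome XVI, 8 of 25 were higher and 1 lower (median 0.42). BTN2, a sorter of misfolded proteins, had 7954, 8222 and 8958 units in thp1Δ and 4410, 3812 and 2997 in sus1Δ (1.18 ± 0.12), and HSF1, the factor that activates the group, gave 0.94 ± 0.07. The lower member was HSP26, a small heat shock protein, with 4121, 3582 and 2974 units against 10117, 10972 and 9963 (−1.55 ± 0.10, adjusted p = 1.76e-06), where BY4742 read 3689. On chromosome XVI, HSP82, the inducible Hsp90, averaged 15603 units in thp1Δ and 6220 in sus1Δ (1.33 ± 0.05), and HSC82, its constitutive copy on chromosome XIII, 14821 and 12903 (0.20, not called). All 32 tested proteasome genes off chromosome XVI had a value above 0 (median 0.39), but only 5 reached the minimum fold. These were RPN4, the activator of proteasome genes (5100, 5189 and 5630 units in thp1Δ, 2660, 2569 and 2497 in sus1Δ, 1.04 ± 0.05), RPT2 (0.90), RPT4 (0.77), RPN6 (0.74) and RPN11 (0.70).

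**Figure D5:**
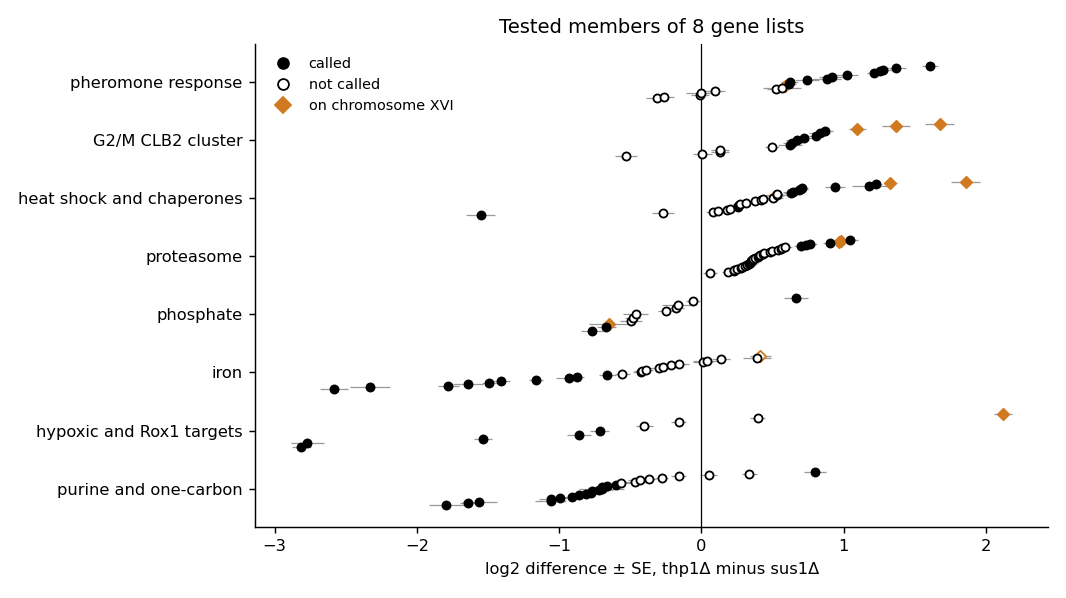
Log2 difference ± SE, thp1Δ minus sus1Δ, of each tested member of 8 gene lists, filled where called and open where not, with members on chromosome XVI as orange diamonds. Proteasome genes all lie above 0 in a narrow band, whereas the iron and hypoxic lists spread down to −2.58 and −2.81.

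The subunits of THSC/TREX-2 that both strains still had were read next. CDC31, the yeast centrin, had 3044, 2979 and 3333 units in thp1Δ and 2073, 2075 and 1898 in sus1Δ (0.63 ± 0.06, adjusted p = 1.77e-05), a fold of 1.55 just over the minimum that fell below it without replicate 3 of thp1Δ. SEM1, shared with the proteasome, gave 0.54 ± 0.05, and SAC3, with 1779 and 1923 units on the 2 thp1Δ arrays that had a value and 1329, 1515 and 1408 in sus1Δ, gave 0.39, and neither was called. Among 15 tested SAGA genes off chromosome XVI, 1 was lower and 1 higher, beside 6.19% and 6.49% of all genes tested there. The lower one was the activator-binding subunit TRA1, with 1593, 1794 and 1752 units in thp1Δ and 3585, 3564 and 3063 in sus1Δ (−0.99 ± 0.07). The higher one was NGG1 (0.99, 2 thp1Δ arrays). On chromosome XVI 1 of 2 was higher, HFI1 (0.88), beside 72.7% of all genes tested there. The deubiquitinating module, to which Sus1 belongs, had no called member among UBP8 (−0.40), SGF11 (0.47) and SGF73 (0.58).

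Of THO and mRNA export genes, 3 of 20 off chromosome XVI and the single tested one on it were higher and none lower, namely MFT1 of THO (1.10, 2 thp1Δ arrays), the export receptor MEX67 (0.90, on chromosome XVI), and the mRNA-binding proteins NAB2 (0.63) and YRA1 (0.59). MFT1 does not stand for THO, since THO2 (−0.50) and TEX1 (−0.525) lay the other way, under the minimum fold. HPR1 and THP2 were removed by the filter. Nuclear pore genes had none of 29 called, with a median of 0.05. Cytosolic ribosomal protein genes had none of 128 called and mitochondrial ones none of 67 off chromosome XVI. All 5 tested mitochondrial ribosomal protein genes on it were higher (median 0.91, beside 0.82 over all tested genes of that chromosome). Off chromosome XVI, ribosome biogenesis genes had 11 of 93 lower and 2 higher (median −0.25). On it 7 of 9 were higher (median 0.71), beside 72.7% of all genes tested there. The nucleolin NSR1 had 5226, 5394 and 4737 units in thp1Δ and 9339, 9650 and 9958 in sus1Δ (−0.92), and NOP53, on chromosome XVI, 4264, 5161 and 5256 against 1717, 1800 and 1741 (1.48). The count of lower ribosome biogenesis genes depended on scaling, since it became 19 over all chromosomes with equal array medians and 20 with quantile normalisation.

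In respiration, 6 of 33 genes off chromosome XVI were higher and none lower (median 0.23), such as NDE1, the external NADH dehydrogenase, with 7899, 8671 and 8907 units in thp1Δ and 4324, 4222 and 4622 in sus1Δ (0.95 ± 0.06), and all 4 on chromosome XVI were higher, led by QCR2 of complex III (1.30). Of 16 citric acid cycle genes off chromosome XVI, 1 was lower and none higher (median −0.04), beside 6.19% of all genes lower there. It was IDH1, of isocitrate dehydrogenase (−0.93), whereas IDH2 was not called (−0.41). FUM1, the 1 tested member on chromosome XVI, was higher (0.81). The only lower member among 25 cell wall integrity genes was GSC2, a glucan synthase, with 3588, 4048 and 3286 units against 9558, 9997 and 9532 (−1.42), while its 4 higher members, RLM1, the transcription factor of that pathway (1.62), among them, were all on chromosome XVI. The same held for the 3 higher genes of glycogen and trehalose, the trehalase ATH1 (1.49), the glycogen phosphorylase GPH1 (1.59, 2 thp1Δ arrays) and the debranching enzyme GDB1. Off chromosome XVI the medians of the cell wall integrity and the glycogen and trehalose list were both 0.03.

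Gene length and level had weak relations to the difference. Across the 3943 tested genes off chromosome XVI, Spearman's rho between coding length and log2 difference was 0.10, and between level and log2 difference 0.03, both across genes, which are not independent replicates. The shortest quintile had 4.11% of genes called higher and the longest quintile 9.51%, with medians of −0.03 and 0.07. On chromosome XVI the medians of the same quintiles were 0.70 and 0.93 (rho 0.23 over 341 genes). The SRB4 ratio, a measure of 3′ bias, also differed between the strains as given above, and its part in these length values was not tested.

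Which strain departed from BY4742 was read from the group means, as a description. Of the 256 genes called higher off chromosome XVI, the thp1Δ mean was the one farther from BY4742 in 230 (89.8%), and of the 244 called lower in 190 (77.9%). On chromosome XVI this was so for 240 of the 248 higher genes (96.8%). Among the 12 lowest genes off that chromosome, thp1Δ was farther in 6, as for PLB2 (875 units in thp1Δ, 3361 in sus1Δ, 3409 in BY4742) and ZRT1 (715, 2726 and 2925), and sus1Δ in the other 6, as for HUG1 and RNR3. These shares were counted among called genes only, with no share over all tested genes beside them, so they cannot be read as particular to called genes. The sus1Δ and BY4742 arrays also had the high bioC readings in common, and the part of the array set in these shares was not tested.

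The filter removed 1165 genes, 83 of them on chromosome XVI, and a gene under 600 units on all 3 arrays of either strain was among them whatever its level in the other. In a fit with no filter, 143 of 1158 such genes would have passed as higher, 48 of them on chromosome XVI, and 170 as lower. Apart from SUS1, the highest were YER053C-A, with 2066, 2158 and 3088 units in thp1Δ and 324, 245 and 239 in sus1Δ (log2 difference 3.17), and PRM2, a pheromone-regulated membrane protein, with 695 and 610 on 2 thp1Δ arrays against 108, 112 and 93.6 (2.64). The lowest besides THP1 and PHO84 was YMR317W, with 118, 98.5 and 118 units against 2970, 4536 and 4000 (−5.08). On the arrays that had a value, the strains did not overlap in any of these genes, which were picked as the extremes of the removed set.

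Lastly, the array values of the genes that were also assayed by RT-qPCR were read. RLF2, a subunit of the chromatin assembly factor CAF-1 on chromosome XVI, had 2065, 2319 and 2571 units in thp1Δ and 468, 480 and 450 in sus1Δ (2.31, removed by the filter), and CLN2 3568, 4163 and 4123 against 1339, 1324 and 1333. PLB2 had 843, 909 and 873 against 3441, 3358 and 3283. HMS2, a factor of the heat shock family, had 528, 500 and 473 against 1996, 1942 and 1943 (−1.97), and ARG1, argininosuccinate synthase, 375, 327 and 579 against 2914, 3590 and 3850 (−3.05), both removed by the filter. The XVI genes of this set were higher and the others lower in thp1Δ. All 5 genes had been chosen as up- or down-regulated in the study's mutants. The RT-qPCR compared thp1Δ and sac3Δ with their wild types and held no sus1Δ, so it did not assay the difference read here.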

How the data were processed

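The values are intensities on a linear scale in arbitrary units, which the authors obtained with dChip by normalising arrays to an invariant probe set and modelling the perfect-match probes. Its version is not stated in the sources at hand, and cells that the authors left empty were taken as outliers of that model. RNA had been extracted with the RNeasy Midi kit. Log2 values were used as deposited, with empty cells as missing (13 tested genes had 1 or more). Probe sets were paired with genes through the platform annotation and assembly R64, used for names, chromosomes, gene order and coding length. For 47 genes with several probe sets the one with the highest mean was kept. Genes under 600 units in at least 50% of the 6 arrays were removed. A linear model of the 6 arrays was fitted in R 4.3.3 by the lmFit and eBayes functions of limma 3.58.1, which gave 5.14 degrees of freedom to the prior, with Benjamini-Hochberg adjustment over all 4284 genes, and its code was tested on simulated data. The fold of 1.5 and the difference of 100 units follow the study's methods, where p was not adjusted. Log2 differences are thp1Δ minus sus1Δ with the standard error of the model, and n = 3 arrays per strain unless stated. Precision is limited by the number of arrays.

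The members, the gene lists and the tests were chosen with earlier results of these data known, so no list was tested as a set, and lists are given by counts and medians. Named genes are the 12 highest and 12 lowest calls off chromosome XVI, the 8 highest and all lower calls on it, the 3 highest and 3 lowest removed genes, the deleted genes with their neighbours, the complex subunits, strain markers, the 5 RT-qPCR genes, and the 2 highest and 2 lowest called members of each list. Other list members named in the text were chosen after their values were seen. Alternatives covered scaling, the filter, an offset, the fit, the calling rule, probe set choice, the methods' t-test criteria, the replicate block and each array left out. Promoter sequences and motifs were not analysed here.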

Additional observations from a re-analysis of the deposited data

How the results depend on the processing

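No gene was called in opposite directions under any alternative. The balance of calls off chromosome XVI did change. It was 256 higher and 244 lower in the main fit, 205 and 305 with array medians equal, and 206 and 312 after quantile normalisation. Equal medians off chromosome XVI gave 291 and 228 there, and no filter gave 351 and 412. With the adjusted p alone, 1586 genes were higher and 1353 lower (8 lower on chromosome XVI, and 1261 higher and 1345 lower off it). With a fold of 2 there were 142 higher and 53 lower (103 higher and 0 lower on chromosome XVI, 39 and 53 off it). With no filter 416 were lower, 412 of them off chromosome XVI, since genes low in thp1Δ entered. The methods' criteria on linear values left 1 lower gene on chromosome XVI with or without adjustment of p. The median of chromosome XVI over that of the others was 0.835 in the 6-array fit, 0.808 after quantile normalisation, 0.863 with no filter and 0.817 with an offset of 50. Setting array medians equal moved the median gene by −0.046 and gave 442 higher and 309 lower genes, quantile normalisation gave 438 and 316, and equal medians off chromosome XVI gave 540 and 231. Leaving out 1 array at a time, on the same tested genes, gave 492 to 535 higher and 226 to 283 lower, 242 to 254 higher and 1 to 4 lower on chromosome XVI, 238 to 293 higher and 224 to 279 lower off it, and a chromosome XVI median of 0.822 to 0.837 over the others. The lower count of chromosome XVI was 1 without replicate 2 or without replicate 3 of sus1Δ. Same-numbered arrays showed little common deviation (correlations of −0.01, 0.15 and 0.01 across genes). With 3 arrays per strain this cannot decide whether the numbers pair the samples. With the replicate block 504 higher and 247 lower genes were called, the same ones. Among named genes, 72 values under an alternative lost a call and 5 gained one. Besides VTC3, PBI1 and CDC31, calls lost without 1 array were those of MUP1, GSY1, MED8 and CDC60, all near the minimum fold. The main limits are 3 arrays per strain, 1 strain per deletion, control probe sets that differ between the strains' arrays, and a filter that keeps genes silent in 1 strain out of the counts.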

Other observations

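Off chromosome XVI 6.49% of tested genes were called higher and 6.19% lower, and on it 72.7% were higher. Splicing genes had 6 of 50 higher and none lower off it (median log2 difference 0.13). All 5 tested on chromosome XVI were higher, with SNT309 and PRP4, of the U4/U6 snRNP (1.29), first. SWI/SNF and RSC genes had 3 of 21 higher and 1 lower off it, the lower one being SNF11 (−0.77), and 3 of 3 higher on it, with the SWI/SNF subunit SWI1 at 6019, 6878 and 7076 units in thp1Δ and 2018, 2145 and 2020 in sus1Δ (1.69). Exocyst genes had 2 of 9 higher off chromosome XVI, SEC5 (0.64) among them, and SEC8 on it (1.74). Of the haploid-specific genes, 4 of 7 were higher, such as STE18, the γ subunit of the G protein of mating (0.72), and RME1, a repressor of meiosis, was lower (−0.91). The inducer of meiosis IME1 was the only 1 of 22 meiosis genes that passed the filter, with 1167, 1165 and 1192 units in thp1Δ and 684, 720 and 705 in sus1Δ (0.74).

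Other lists had few calls off chromosome XVI. Glycolysis and fermentation had 1 higher, the hexokinase HXK1 (0.91), and 1 lower of 20, the alcohol dehydrogenase ADH5 (−1.19). Hexose transport had 2 of 12 higher, STD1 (0.91) and HXT4 (0.76), and the M/G1 genes 1 of 24 higher, PIR3 (1.00), and 2 lower, with PRY3 at −1.23. Ergosterol genes had 1 of 24 higher, ERG5 (0.91), and 1 lower, UPC2, methionine and sulfate genes 1 of 12 higher, MUP1 (0.64), and RNA polymerase II and Mediator genes 1 of 29 lower, MED8 (−0.62). Aminoacyl-tRNA synthetase genes had none of 17 called.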
